A study of Saccharomyces cerevisiae with 6 samples.

Results

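The proteasome is the protease that degrades most ubiquitin-tagged proteins in the yeast cytosol and nucleus. Its barrel-shaped core particle is built from alpha rings, which gate entry, and beta rings, which carry the proteolytic sites. Its regulatory particle has a base, with a ring of ATPases that unfold substrates, and a lid, which removes ubiquitin chains. In Saccharomyces cerevisiae most proteasome genes share a promoter element bound by the transcription activator Rpn4. Rpn4 is itself a short-lived substrate of the proteasome, so that in yeast the activator is known to build up when degradation slows, and proteasome genes are then transcribed more.

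The genes described here are 33 genes picked by symbol: 7 alpha-ring genes, 7 beta-ring genes, 6 ATPase genes and 4 other genes of the base, 8 genes of the lid, and RPN4. They are 33 of the 5449 genes that the arrays' annotation names. All 33 had 1 probe set each, and all 33 were among the 4915 genes bright enough to be tested. Their mean signals over the 6 arrays, averaged on the log2 scale and turned back, lay between 1309 (RPN4) and 4514 (RPN1). The lower limit for testing was 90.5 on the same scale, so that none passed through a single bright strain.

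Transcripts were measured in 3 strains with 2 arrays each, labelled as separate experiments. The wild type was BY4741, a haploid laboratory strain of mating type a that is auxotrophic for histidine, leucine, methionine and uracil. One mutant was BY4741 delta eos1, which lacks the gene of an endoplasmic reticulum membrane protein known from N-glycosylation and tolerance of oxidative stress, and the other was BY4741 delta izh2, which lacks the gene of a membrane protein of the progestin and adipoQ receptor family known from zinc homeostasis. All 3 strains share the BY4741 background, growth in YPD, a rich medium, at 30 degrees Celsius and 150 rpm, and harvest in log phase at an optical density of 1.0, with no treatment. The labels do not say how the deletions were made or how many clones were used, and the series' title names the role of Eos1 in zinc homeostasis as its subject.

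The EOS1 signal was 694 and 692 in BY4741 against 0.42 and 2.70 in its own deletion, and the IZH2 signal was 3543 and 2390 in BY4741 against 3.46 and 1.12 in its own deletion, which matches the labels. Other features of the eos1 deletion touch what follows. Its arrays were brighter, with median signals over the tested genes of 789 and 658, against 641 and 587 for BY4741 and 578 and 553 for delta izh2, and the sources used here do not give how the authors scaled the arrays. Of 353 tested genes on chromosome II, 58.92% were called higher in the eos1 deletion, with a median log2 fold change of 1.03, against 2.367% of 4562 genes on other chromosomes, with a median of 0.19. All 5 tested a-cell genes (MFA1, MFA2, STE2, STE6 and BAR1) were called lower there, at log2 fold changes of -3.01 to -0.90, although BY4741 is of mating type a. Of 4 alpha-cell genes only SAG1 was bright enough to be tested, at a log2 fold change of 0.67 and an adjusted p of 0.099 by limma. The alpha-cell receptor gene STE3 was listed at 144 and 121 in delta eos1 against 47.2 and 45.3 in BY4741. Its mean over all arrays was below the limit of 90.5 for testing, but above the 14.9 that holds when control probe sets are left out. The alpha-factor genes were dim on all 6 arrays, with MF(ALPHA)1 between 0.91 and 13.3 and MF(ALPHA)2 between 18.3 and 34.4, and the MF(ALPHA)2 values of delta eos1 lay within those of BY4741. The part of these features in the proteasome values was not tested, except where a value without them is given.

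In the eos1 deletion against the wild type, proteasome transcripts lay slightly higher and none of the 33 genes passed the test. The log2 fold change was above 0 for 32 of 33 genes, with a median of 0.32 and a range from -0.003 (RPT4) to 0.93 (PRE7). The median of all 4915 tested genes was 0.21, so that the proteasome median lay 0.10 above it, and 24 of 33 genes lay above it. A gene was called when its p value from limma, a linear model fitted across all tested genes and all 6 arrays, was below 0.05 after Benjamini-Hochberg adjustment over those genes. By that rule 6.43% of tested genes were called higher and 0.712% lower, and 0 of 33 proteasome genes were called in either direction. Off chromosome II, where 32 of the 33 lie, 2.367% of tested genes were called higher. It was 1.714% of the 875 genes there with mean signals in the range of the proteasome genes. At an unadjusted p below 0.05, 7 proteasome genes were higher and 0 lower, against 19.5% of all tested genes higher and 2.42% lower. Off chromosome II, 6 of 32 proteasome genes were higher, against 652 of 4562 tested genes and 75 of the 875 in that range of signal. The count of 7 became 2 with median centring, 4 with quantile normalization, 4 with centring outside chromosome II and 4 with the stricter filter. It became 6 with no trend, 8 with the filter level set without control probe sets, 9 with no filter and 10 with the replicate block. The share of all tested genes at that unadjusted p was not taken under these settings. With 1 array left out, the median log2 fold change of the 33 genes ran from 0.20 to 0.44. Both eos1 arrays lay above both wild-type arrays for 22 of 33 genes, which is 66.67%, against 41.9% of tested genes, and below for 0, against 8.83%.

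The count of genes without overlap depended on the scale of the arrays. After each array was centred on its own median, both eos1 arrays lay above both wild-type arrays for 10 of 33 proteasome genes, 30.3%, and below for 3, against 22.93% and 26.94% of all tested genes. Genes of like brightness lay lower. Among the 970 tested genes whose mean signal fell within the range of the proteasome genes, the median log2 fold change was 0.13, and it was 0.087 for the 875 of them outside chromosome II. The distance of the proteasome median from that of all genes was 0.10 with all arrays, which centring leaves unchanged, and 0.20 with quantile normalization. It became 0.18 when the first array of the wild type was left out, 0.044 when the second was, and 0.044 when the second eos1 array was. The p values rest on the spread between arrays that the labels call independent experiments. In RNA from a whole culture, less transcript per cell and fewer cells carrying it cannot be told apart.

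**Figure D1:**
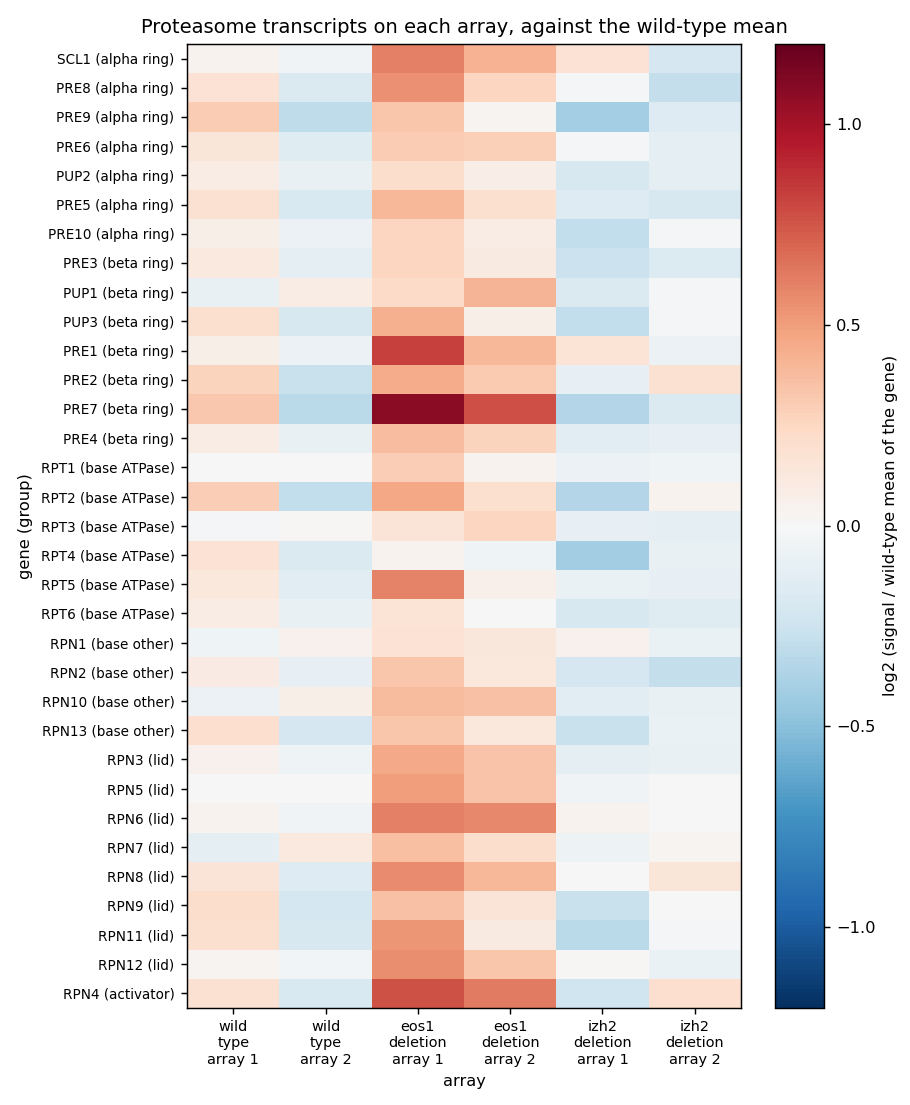
Each row is 1 of the 33 proteasome genes and each column 1 array, and the colour is the log2 ratio of the signal to the gene's wild-type mean. The eos1 columns are red for most genes and reddest for PRE7 (1.08 and 0.78), and the first wild-type column is redder than the second.

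The arrays of 1 strain differed from each other by amounts close to these shifts. Relative to the wild-type mean, the median over the 33 genes was 0.099 and -0.099 for BY4741, 0.38 and 0.21 for delta eos1, and -0.13 and -0.083 for delta izh2. Measured from the median of all genes on the same array, these values became 0.050 and -0.050, 0.044 and 0.13, and -0.064 and 0.059. On that second scale the first eos1 array lay between the wild-type arrays. Of the 33 genes 27 were higher on the first than on the second wild-type array, with a median log2 difference of 0.20, against 0.096 for all genes. The same count was 31 between the eos1 arrays and 11 between the izh2 arrays.

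RPN4 (YDL020C, chromosome IV), the activator, had signals of 1268 and 989 in BY4741, 1907 and 1723 in delta eos1 and 951 and 1286 in delta izh2. Both eos1 arrays lay above all 4 other arrays, and the izh2 arrays straddled the wild-type ones. The log2 fold change in the eos1 deletion was 0.70, a ratio of 1.62, with a 95% interval of 0.14 to 1.25, an unadjusted p of 0.020 and an adjusted p of 0.14 by limma, so RPN4 was not called. It stood at the 87.22 percentile of all tested genes. Relative to the median of the 31 subunit genes other than PRE7, RPN4 lay 0.40 and 0.43 higher in delta eos1, 0.088 and -0.088 in BY4741, and -0.11 and 0.28 in delta izh2. On the first eos1 array 1 of these 31 subunit genes reached the RPN4 value, and on the second 0 did, but 0 did on the second izh2 array as well. In none of the alternative settings was RPN4 called, with adjusted p values of 0.12 to 0.42 for the eos1 deletion against the wild type.

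The alpha ring forms the outer rings of the core particle and holds the gate that the regulatory particle opens. Its 7 genes had a median log2 fold change of 0.29 in the eos1 deletion, from 0.15 (PUP2) to 0.51 (SCL1), and 0 of 7 were called. SCL1 (chromosome VII), the gene at the top of that range, gave 2791 and 2642 in BY4741, 4125 and 3617 in delta eos1 and 3062 and 2368 in delta izh2. Its eos1 arrays lay above all others, and its adjusted p against the wild type was 0.18 by limma, at a log2 fold change of 0.51 and a 95% interval of 0.055 to 0.96. PRE8 gave 2799 and 2202, then 3627 and 2976, then 2458 and 2038 in the same order of strains, a log2 fold change of 0.40. Overlap of single genes' arrays is given on the scale as deposited. There, both eos1 arrays lay above both wild-type arrays for 41.9% of all tested genes. The arrays of PRE8, PRE6, PRE5 and PRE10 also did not overlap, at log2 fold changes of 0.40, 0.29, 0.29 and 0.17. Those of PUP2 and of PRE9, the alpha subunit that yeast can live without, did: PRE9 gave 4826 and 3176 in BY4741 against 4936 and 4006 in delta eos1.

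The beta ring holds the active sites: PRE3 encodes the caspase-like, PUP1 the trypsin-like and PRE2 the chymotrypsin-like subunit. The 3 active-site genes had log2 fold changes of 0.18, 0.32 and 0.38 in the eos1 deletion, with adjusted p values of 0.58, 0.42 and 0.35 by limma. PRE2 gave 3999 and 2759 in BY4741, 4518 and 4131 in delta eos1 and 3108 and 3761 in delta izh2. Its eos1 arrays were the highest, but the wild-type arrays lay far apart. PUP1 gave 1991 and 2249, then 2480 and 2806, then 1873 and 2076, with no overlap between the eos1 deletion and either other strain. PRE3 gave 4549 and 3888 in BY4741 against 5040 and 4533 in delta eos1, where the groups just overlapped.

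Of the beta subunits without an active site, PRE1 and PRE7 had the larger log2 fold changes. PRE1 gave 1943 and 1752 in BY4741, 3266 and 2435 in delta eos1 and 2061 and 1760 in delta izh2. The eos1 arrays lay above the rest but differed widely from each other, and the log2 fold change was 0.61, with an adjusted p of 0.15 by limma. PUP3 and PRE4 stood at 0.25 and 0.32. The whole beta ring had a median of 0.32, with 0 of 7 genes called, and 6 of 7 genes above the median of all tested genes.

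PRE7 (YBL041W), a structural beta subunit, is the only one of the 33 genes on chromosome II. Its signals were 2848 and 1824 in BY4741, 4825 and 3907 in delta eos1 and 1786 and 2025 in delta izh2. Both eos1 arrays lay above all others, and the wild-type arrays were the most spread of any strain for this gene. The log2 fold change in the eos1 deletion was 0.93, a ratio of 1.91, with a 95% interval of 0.38 to 1.48 and an adjusted p of 0.051 by limma, which misses the threshold. It passed under 6 of 16 other settings: the quantile normalization (adjusted p 0.045), the stricter filter (0.0097), the filter level set without control probe sets (0.048), the pseudocount (0.0497), the replicate block (0.038) and the fit without the first wild-type array (0.0053, log2 fold change 1.25). The log2 fold change fell to 0.61 when the second array of the wild type was left out (adjusted p 0.23) and to 0.78 when the first eos1 array was (0.24).

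PRE7 lay above the other core genes and within the range of its chromosome. Relative to the median of the other 13 core genes on the same array, PRE7 lay 0.71 and 0.52 higher in delta eos1, 0.21 and -0.21 in BY4741 and -0.20 and -0.062 in delta izh2, and 0 of 13 core genes reached it on either eos1 array, a state also seen on the first wild-type array. Of the 353 tested genes of chromosome II, 37.39% had a lower log2 fold change than PRE7, and their median was 1.03. Without PRE7, the median of the other 32 genes was 0.31 on the scale as deposited.

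**Figure D2:**
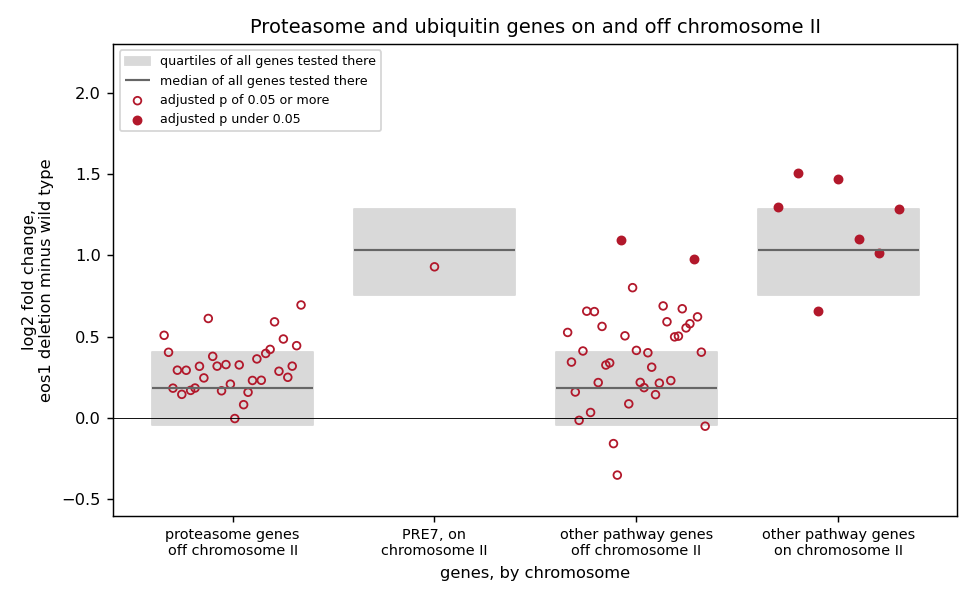
Points are log2 fold changes of single genes in the eos1 deletion against the wild type, filled where the adjusted p was under 0.05, and grey boxes with a line are the quartiles and median of all tested genes on the same chromosomes. PRE7 (0.93) lies between the chromosome's quartiles of 0.755 and 1.285, whose median is 1.03. The 7 other pathway genes on chromosome II lie from 0.66 to 1.51, some outside these quartiles, with a median of 1.28. Most genes off chromosome II lie between 0 and 0.7.

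The base ATPases, RPT1 to RPT6, unfold substrates and push them into the core. They had the smallest median of the groups of several genes, 0.19, which is -0.026 relative to all tested genes, and 2 of 6 lay above the median of all genes. No test was made between the groups. RPT4 gave 3179 and 2494 in BY4741, 2899 and 2724 in delta eos1 and 2112 and 2646 in delta izh2. The eos1 arrays fell between the wild-type arrays, and the log2 fold change was -0.003 with a 95% interval of -0.49 to 0.48. RPT6 gave 4758 and 4200 in BY4741 against 5010 and 4470 in delta eos1, a log2 fold change of 0.082 with overlapping arrays. RPT2 and RPT5, whose tails dock into the alpha ring to open the gate, stood at 0.33 and 0.33 with overlapping arrays, and RPT1 and RPT3 at 0.17 and 0.21 without overlap.

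The other base genes encode the scaffolds Rpn1 and Rpn2 and the ubiquitin receptors Rpn10 and Rpn13. Their log2 fold changes in the eos1 deletion were 0.16, 0.23, 0.36 and 0.23, with a median of 0.23, and 0 of 4 were called. RPN10 gave 2086 and 2292 in BY4741, 2842 and 2785 in delta eos1 and 2003 and 2062 in delta izh2. Its eos1 arrays lay above and close together, with an adjusted p of 0.33 by limma. The scaffold RPN1 gave 4224 and 4510, then 4934 and 4811, then 4528 and 4133, so that its eos1 arrays were the highest by a small margin.

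The lid had a median log2 fold change of 0.41, and all 8 lid genes lay above the median of all tested genes, with 0 of 8 called. RPN6, whose product contacts the core particle and ties lid to base, gave 2199 and 2084 in BY4741, 3263 and 3189 in delta eos1 and 2203 and 2147 in delta izh2. The arrays of each strain lay close together, and both eos1 arrays lay above the other 4. The log2 fold change was 0.59, a ratio of 1.51, with a 95% interval of 0.16 to 1.03 and an adjusted p of 0.11 by limma.

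RPN8, the partner of the deubiquitinase Rpn11, gave 2949 and 2367 in BY4741, 3919 and 3493 in delta eos1 and 2642 and 2920 in delta izh2, at a log2 fold change of 0.49. RPN5 gave 3085 and 3076, then 4373 and 3895, then 2987 and 3087, at a log2 fold change of 0.42. Both genes had no overlap between the eos1 deletion and either other strain, and adjusted p values of 0.19 and 0.20 by limma. RPN12, RPN3 and RPN7 also had no overlap with the wild type, at 0.44, 0.40 and 0.29. RPN11 itself, the gene of the lid's deubiquitinase, gave 1733 and 1328 in BY4741 against 2191 and 1635 in delta eos1, at 0.32 with overlap, and RPN9 stood at 0.25 with overlap.

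**Figure D3:**
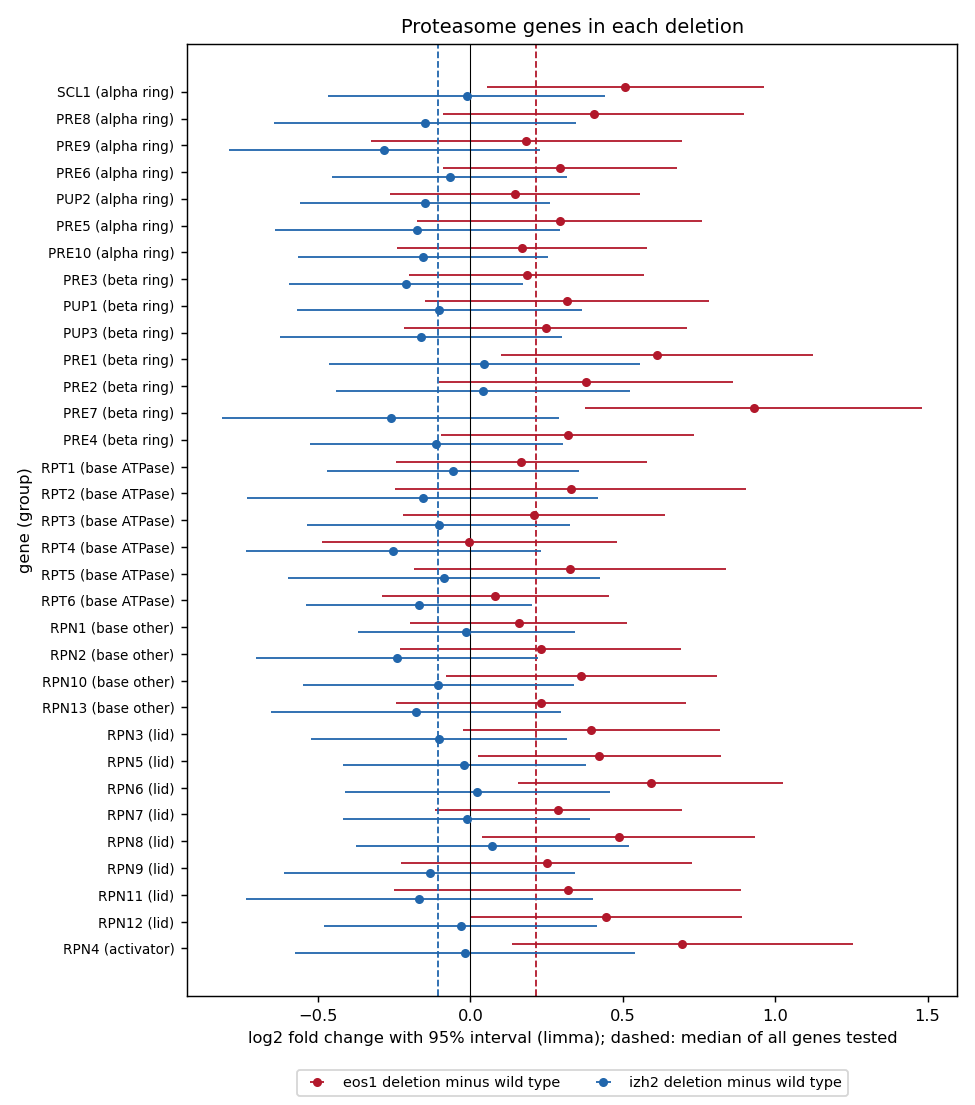
Points are the log2 fold changes of the 33 genes in each deletion against the wild type with the 95% interval from limma, and dashed lines are the medians of all tested genes (0.21 in the eos1 deletion, -0.11 in the izh2 deletion). The eos1 intervals include the dashed median for every gene but PRE7, and the izh2 intervals include 0 throughout.

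Genes around the proteasome were examined in lists of assembly factors and associated proteins, of ubiquitin transfer and delivery, and of regulators of RPN4. Of 44 tested genes, 9 were called higher in the eos1 deletion, 20.45% against 6.43% of all tested genes, and 0 lower. Of the 9, 7 lie on chromosome II, where 7 of 7 listed genes were called, against 58.92% of all tested genes there. Off chromosome II, 2 of 37 were called, which is 5.405%, against 2.367% of all genes there. The median log2 fold change of these 37 genes was 0.41, against 0.19 for all tested genes outside chromosome II.

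Among the assembly factors and associated proteins, 2 of 16 were called higher, against 6.43% of all tested genes, and 0 lower. On chromosome II 2 of 2 were called, against 58.92% of all tested genes there, and elsewhere 0 of 14, against 2.367%. UMP1 (YBR173C, chromosome II), the maturation factor enclosed and degraded by the new core particle, gave 1174 and 1041 in BY4741, 2835 and 2604 in delta eos1 and 1097 and 1081 in delta izh2. Its log2 fold change was 1.30, with an adjusted p of 0.0072 by limma. HSM3 (YBR272C, chromosome II), a chaperone of base assembly, gave 412 and 418, then 1151 and 1211, then 445 and 368. It rose by a log2 fold change of 1.51, with an adjusted p of 0.0037 by limma.

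The base chaperones encoded off chromosome II were not called against the wild type: NAS6 stood at 0.66, TMA17 at 0.65, NAS2 at 0.41 and RPN14 at 0.034. The adjusted p of TMA17 was 0.086 by limma. The alpha-ring chaperone genes PBA1, ADD66, IRC25 and POC4 stood at 0.53, 0.34, 0.16 and -0.014. CIC1, which encodes a proteasome-interacting nuclear protein that also acts in ribosome biogenesis, had the lowest value of the list, -0.35, and its eos1 arrays (2321 and 1964) lay below the wild-type ones (2795 and 2653).

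In the ubiquitin list, 5 of 21 genes were called higher and 0 lower, against 6.43% of all tested genes higher, and 1 of 17 off chromosome II, against 2.367% there. All 21 had log2 fold changes above 0 on the scale as deposited, as did 3588 of 4915 tested genes, from 0.087 (UBC1) to 1.47 (NPL4). NPL4 and SHP1, cofactors of the unfoldase Cdc48, rose by 1.47 and 1.10, with adjusted p values of 0.0043 and 0.011 by limma. UBP14, which takes free ubiquitin chains apart, and UBC4, a conjugating enzyme, rose by 1.02 and 0.66, with adjusted p values of 0.028 and 0.013 by limma. All 4 lie on chromosome II. The call of UBC4 was lost when arrays were centred on their median (adjusted p 0.10) or on genes outside chromosome II (0.072), with no intensity trend (0.078) and without the first eos1 array (0.085). That of UBP14 was lost without the first wild-type array (0.072), the first eos1 array (0.16), the first izh2 array (0.053) or the second izh2 array (0.052).

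UBI4 (YLL039C, chromosome XII), the polyubiquitin gene, was the 1 gene of that list called off chromosome II, and it was picked for description after its values were seen. It gave 1156 and 1421 in BY4741, 3342 and 2244 in delta eos1 and 1028 and 918 in delta izh2. The eos1 arrays lay above all others but far apart, and the log2 fold change was 1.10, with an adjusted p of 0.031 by limma. That call was lost without the chromosome II genes in the fit (adjusted p 0.077), if the first array of the wild type was left out (0.082), the first eos1 array (0.21, log2 fold change 0.81) or either izh2 array (0.060 each). DSK2, a shuttle of ubiquitinated proteins, gave 2129 and 2629 in BY4741 against 3730 and 3902 in delta eos1, at 0.69 and an adjusted p of 0.068 by limma. The other shuttles, RAD23 and DDI1, stood at 0.21 and 0.59.

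Of the 7 regulators of RPN4, 2 were called higher, against 6.43% of all tested genes, and 0 lower. On chromosome II 1 of 1 was called, against 58.92% of all tested genes there, and elsewhere 1 of 6, against 2.367%. PDR3 (YBL005W, chromosome II), a drug resistance activator that acts on the RPN4 promoter, gave 223 and 251 in BY4741, 608 and 544 in delta eos1 and 284 and 219 in delta izh2. It rose by a log2 fold change of 1.28, with an adjusted p of 0.0076 by limma, and its paralogue PDR1 on chromosome VII stood at 0.58 and was not called. YAP1 (YML007W, chromosome XIII), the oxidative stress activator that also acts on RPN4, gave 326 and 463, then 699 and 839, then 434 and 493. Its log2 fold change was 0.98, with an adjusted p of 0.034 by limma.

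The call of YAP1 was lost under 9 of 15 other settings, with log2 fold changes of 0.71 to 1.11 and adjusted p values of 0.064 to 0.17. Those settings were all 3 rescalings of the arrays, the fit without chromosome II genes, and the fits without the first wild-type array, either eos1 array or either izh2 array. HSF1, the heat shock activator, stood at 0.55 and was not called. UBR2, the gene of the ubiquitin ligase that marks Rpn4 for degradation, MUB1, that of its cofactor, and RAD6, that of the conjugating enzyme, stood at 0.62, 0.41 and -0.050, with adjusted p values of 0.18, 0.43 and 0.91 by limma.

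**Figure D4:**
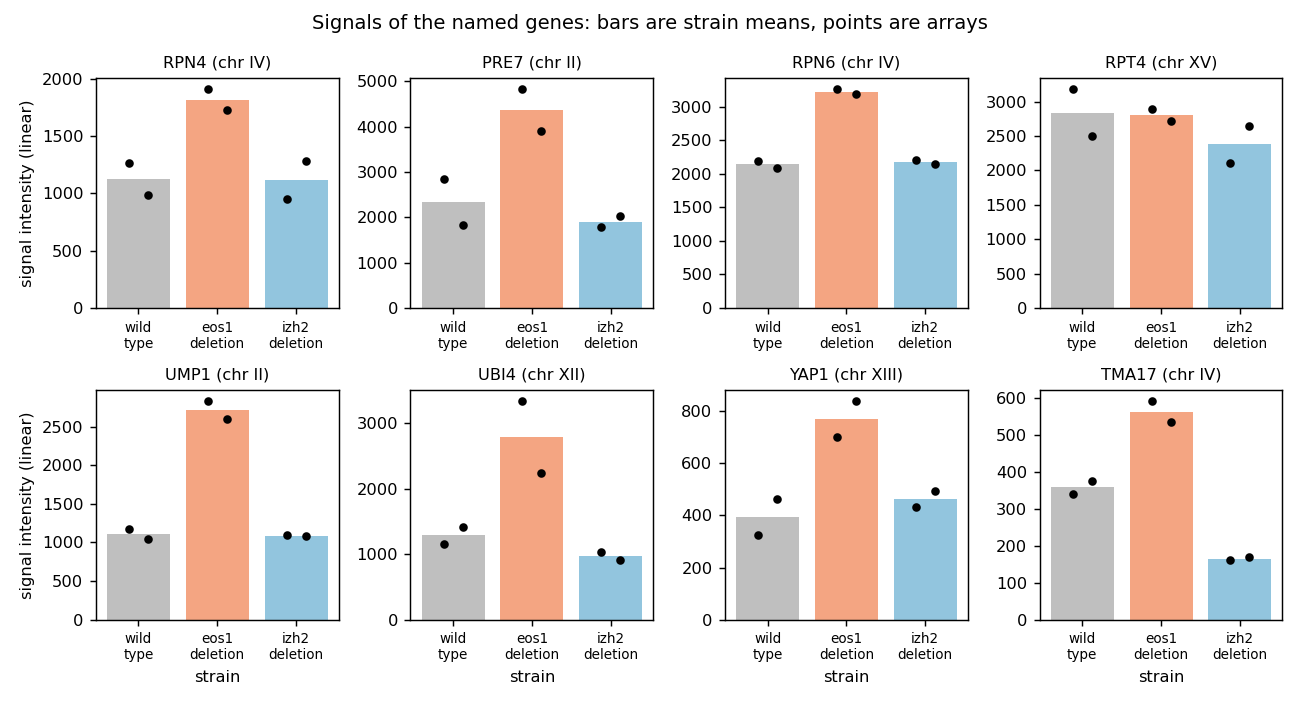
Bars are the mean signal intensity of each strain on a linear axis from 0 and points are the 2 arrays, for 4 of the 33 genes (upper row) and 4 genes of the related lists (lower row). The eos1 points lie above both other strains for RPN4, PRE7, RPN6, UMP1, UBI4, YAP1 and TMA17, and inside the wild-type range for RPT4.

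In the izh2 deletion against the wild type no proteasome gene passed the test, and the group's median lay at that of all genes. The median log2 fold change of the 33 genes was -0.11, from -0.28 (PRE9) to 0.072 (RPN8), and the median of all tested genes was -0.11 as well, so that the difference was 0.002. The median of the 33 genes turned to 0.012 with median centring, 0.029 with quantile normalization, 0.020 with centring outside chromosome II and 0.008 without the first wild-type array, and it was -0.22 without the second. The difference from all genes became 0.069 and -0.061 when the first or the second array of the wild type was left out, and 0.059 and -0.064 when the first or the second izh2 array was. By the adjusted rule 0 of 33 were called, against 0.0% of tested genes higher and 0.0203% lower, the latter being IZH2 itself. At an unadjusted p below 0.05, 0 of 33 were higher or lower, against 0.163% and 1.95%. Both izh2 arrays lay above both wild-type arrays for 0 of 33 genes, against 5.19%, and below for 9 of 33, which is 27.27%, against 22.9%. After centring on the array median these became 3 above and 1 below, against 13.06% and 12.53% of tested genes. Before centring the 9 genes were PUP2, PRE3, PRE4, RPT1, RPT3, RPT6, RPN2, RPN10 and RPN3.

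PRE9, PRE3, RPN2, RPT4, PRE7 and RPT6 had the smallest unadjusted p values in that comparison, with log2 fold changes of -0.28, -0.21, -0.24, -0.25, -0.26 and -0.17, all at an adjusted p of 0.998 by limma. For PRE9 and PRE7 the sign turned without the first wild-type array, to 0.020 and 0.060. RPN4 stood at -0.018 with a 95% interval of -0.58 to 0.54. Its value turned to 0.10 with median centring, 0.15 with quantile normalization and 0.11 with centring outside chromosome II, and to 0.16 without the first wild-type array and 0.20 without the first izh2 array. The group medians ran from -0.15 (alpha ring) to -0.027 (lid).

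Of the 44 related genes 0 were called in the izh2 deletion. TMA17 (YDL110C, chromosome IV), a base assembly chaperone known in yeast as stress-inducible, gave 340 and 374 in BY4741, 591 and 534 in delta eos1 and 161 and 168 in delta izh2. The 3 strains did not overlap and the arrays of each lay close together. In the izh2 deletion its log2 fold change was -1.12, and its adjusted p was 0.57 by limma. FUB1, an inhibitor of the core particle, stood at -0.66, and UBI4, HUL5, YAP1 and RAD6 at -0.40, -0.29, 0.25 and -0.17, all uncalled. Single arrays moved these values: with 1 array left out, FUB1 ranged from -1.12 to -0.20, UBI4 from -0.55 to -0.25, HUL5 from -0.41 to -0.17 and RAD6 from -0.27 to -0.073, and YAP1 went to 0.51 without the second wild-type array and to -0.00048 without the first.

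In the eos1 deletion set against the izh2 deletion, 1 of 33 proteasome genes was called higher and 0 lower. This comparison shares its eos1 and izh2 arrays with the comparisons above and is no independent evidence of them, as those share the wild-type arrays with each other. The median log2 fold change of the 33 genes was 0.42, from 0.17 (RPN1) to 1.19 (PRE7), against 0.31 for all tested genes. By the adjusted rule 12% of tested genes were called higher and 0.712% lower. On chromosome II, where PRE7 lies, 76.77% of tested genes were called higher, with a median log2 fold change of 1.17. Without PRE7, 0 of 32 proteasome genes were called, against 6.949% of tested genes off chromosome II called higher. At an unadjusted p below 0.05, 14 proteasome genes were higher and 0 lower, against 27.7% and 1.73%. The count of 14 became 1 under each of the 3 rescalings, 7 with the stricter filter, 11 with no trend and 17 with the replicate block. The share of all tested genes at that unadjusted p was not taken under these settings. With 1 array left out, the median log2 fold change of the 33 genes ran from 0.35 to 0.51. Both eos1 arrays lay above both izh2 arrays for 33 of 33 genes, against 54.7% of tested genes, and below for 0, against 6.45%. After centring on the array median they lay above for 9 of 33, 27.27%, and below for 2, against 25.57% and 30.8% of all tested genes.

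PRE7 was the gene called, with a log2 fold change of 1.19, a ratio of 2.28, a 95% interval of 0.64 to 1.74 and an adjusted p of 0.011 by limma. The call was lost without the first eos1 array (adjusted p 0.072), the first izh2 array (0.080) or the second izh2 array (0.071), with log2 fold changes of 1.04, 1.10 and 1.28. RPN6 and RPN4 followed at 0.57 and 0.71, with adjusted p values of 0.089 and 0.096 by limma. RPN3, SCL1 and PRE8 stood at 0.50, 0.52 and 0.55, with adjusted p values of 0.12, 0.13 and 0.14. The distance of the proteasome median from that of all genes was 0.10, and -0.011 without the first izh2 array and 0.17 without the second.

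Among the 44 related genes 11 were called higher between the deletions and 0 lower. Of the 11, 7 lie on chromosome II, where 7 of 7 were called against 76.77% of all tested genes there, and 4 of 37 were called elsewhere, 10.81% against 6.949%. The 4 off chromosome II were TMA17, NAS6, UBI4 and UBC5. TMA17 had the largest log2 fold change of these 44 genes, 1.77, with an adjusted p of 0.0010 by limma, and its adjusted p stayed below 0.05 in every other setting tried, up to 0.026. UBI4 was higher at a ratio of 2.82, with an adjusted p of 0.0051 by limma, and 0.063 without the second izh2 array. The same omission ended the calls of UMP1 (0.058), SHP1 (0.058), PDR3 (0.095) and UBC4 (0.058).

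NAS6 (0.80, adjusted p 0.039 by limma) and UBC5 (0.95, adjusted p 0.043 by limma) were lost under 8 and 9 of 15 other settings, the 3 rescalings of the arrays among them. UBC5 and UBP14 were picked for this comparison after their values were seen. UBC5 and UBC4 are close paralogues, and how far each probe set reads the other's transcript was not tested. UBC4 itself was also lost when arrays were centred on their median (adjusted p 0.11) or on genes outside chromosome II (0.081), and UBP14 (1.12, adjusted p 0.011 by limma) without the first eos1 array (0.081) or the second izh2 array (0.14).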

How the data were processed

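The authors deposited 1 linear signal intensity per probe set and array for 10928 probe sets of Affymetrix Yeast Genome 2.0 arrays. GCOS is the software that the submitters' processing notes name, and GeneSpring 7.3.1 was used for statistics, per the series' design text. RNA was taken with hot phenol and labelled with biotin, per the labels' protocols. The sources used here do not give the scaling between arrays. Precision is limited by the number of arrays.

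Of the probe sets, 5498 named 1 gene, 1 named several, 1746 named genes that the S. cerevisiae table lacks and 3683 none. The brightest probe set was used for 47 genes with several, and 12 symbols were updated. Signals were floored at 1 and transformed to log2 without further normalization. Genes above the 95th percentile of probe sets naming no S. cerevisiae gene (log2 6.50) were tested. Those probe sets included control probe sets, and without these the level was log2 3.89. Models were fitted to all 6 arrays in R 4.3.3 by limma 3.58.1 (lmFit, then contrasts.fit, then eBayes with trend, 3 residual and 7.41 prior degrees of freedom), two-sided. On simulated data of 4915 genes for the eos1 deletion against the wild type, 43% of genes changed by 1 on the log2 scale and 78% of those changed by 2 were recovered, with 8 false calls among 129. The simulation shuffled the spreads across genes, bright and dim alike, and put in no shift of whole arrays or of chromosome II. Its rates therefore need not hold for the bright proteasome genes.

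The members, lists and tests were chosen with earlier results of these data known. All 33 proteasome genes were described by role. Values in full followed a rule: RPN4, PRE7, called members, the 6 members with the smallest p per comparison, and from each other list up to 4 called genes by p, or the 2 with the smallest p. UBI4 (eos1 against wild type), UBC5 and UBP14 (eos1 against izh2), and examples of the other members and list genes, were added after values were seen. Alternatives were 3 rescalings, 3 filters, a pseudocount of 16, no trend, no chromosome II genes, a replicate block and leaving out each array. No sequence was used here.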

Additional observations from a re-analysis of the deposited data

How the results depend on the processing

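The count of tested genes called in the eos1 deletion against the wild type was 351, and 95 with the stricter filter, 59 without chromosome II genes and 160 to 415 when 1 array was left out, the lowest without the first eos1 array (225 and 227 without the first and second izh2 array). Calls were 316 higher and 35 lower as deposited, and 209 and 110 with median centring, which moved the median of all genes from 0.21 to -0.019. Between the deletions the count was 623 (588 higher, 35 lower), and 520 (327 and 193) with median centring, 139 with the stricter filter, 252 without chromosome II genes and 82 to 879 with 1 array left out, the lowest without the second izh2 array (277 without the first eos1 array, 285 without the first izh2 array). In the izh2 deletion it was 1, and 4 with the stricter filter and 1 to 25 with 1 array left out, the highest without the second wild-type array.

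Proteasome genes called in the eos1 deletion numbered 0, and 1 (PRE7) with quantile normalization, the stricter filter, the filter level without control probe sets (an alternative chosen after seeing the data), the pseudocount and the replicate block, and 0 to 1 with 1 array left out. Between the deletions the count was 1, and 0 to 1 with 1 array left out. The distance of the proteasome median from that of all genes was 0.20 with quantile normalization and 0.26 with the stricter filter in the eos1 deletion, and 0.044 to 0.18 with 1 array left out. Between the deletions it was 0.20, 0.27 and -0.011 to 0.17. In the izh2 deletion, RPN4 turned to 0.10 with median centring, 0.15 with quantile normalization and 0.11 with centring outside chromosome II. With 1 array left out, RPN4 ranged from -0.24 to 0.20, PRE7 from -0.58 to 0.060, PRE9 from -0.58 to 0.020 and YAP1 from -0.00048 to 0.51. The cause of these moves was not tested.

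The replicate number as a replicate block gave 428 genes called in the eos1 deletion, 1 in the izh2 deletion and 740 between the deletions. Same-numbered arrays deviated together between wild type and eos1 (r = 0.48 across genes), opposite between wild type and izh2 (-0.34) and hardly between the deletions (0.089), so the numbers were not taken as pairs. The alternatives were followed for 47 pairs of a gene and a comparison, not for every gene value given above. Of the 47, 29 kept call and direction in every setting run, a number that includes pairs never called. The planned count of promoter motifs was not run.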
